A study of Mus musculus with 6 samples.

Results

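The interferon regulatory factors are a family of transcription factors, and 8 of their genes (*Irf1*, *Irf2*, *Irf3*, *Irf4*, *Irf5*, *Irf7*, *Irf8* and *Irf9*) were picked by gene symbol from the 24786 symbols of an RNA-sequencing table of the mouse macrophage line Raw264.7. Cells had received a lentivirus with a control shRNA (sh-NC, 3 libraries) or with an shRNA against *Etv5* (sh-*Etv5*, 3 libraries). Both groups were otherwise the same line, grown in the same medium without an added stimulus in the culture description. The labels give its strain as C57BL/6 and its origin as a tumor induced by Abelson murine leukemia virus. The methods of the study name C57BL/6 for its mice, state that the line was bought from ATCC and give no strain for it. The strain on the labels of the line was not checked here and should not be relied on. The labels do not settle how long after infection the RNA was taken, and the methods of the study describe selection with puromycin. The study asked which genes change when *Etv5*, which encodes an ETS-family transcription factor, is reduced. Which of the shRNAs against *Etv5* was sequenced, and whether each library stands for its own infection, is not given in the sources used here, so p-values measure the spread between libraries, which may be technical.

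All interferon regulatory factors bind DNA through a conserved N-terminal domain that reads repeats of the core GAAA, the interferon-stimulated response element (ISRE). IRF3 and IRF7 are phosphorylated by the kinases TBK1 and IKKε downstream of nucleic acid sensors and Toll-like receptors and switch on type I interferon genes. IRF9 is the DNA-binding part of the complex ISGF3, which carries the signal of the interferon receptor to its target genes. IRF1 is an activator and IRF2 mostly a repressor of shared sites, IRF5 drives inflammatory cytokines, and IRF4 and IRF8 work with the ETS factor PU.1 in lymphoid and myeloid cells.

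Values are RPKM, that is reads scaled by gene length and by the mapped reads of the library, so levels of different genes can be compared per length. *Irf8* and *Irf7* were higher in sh-*Etv5* cells, by 83.3% and 75.3% of their mean RPKM in sh-NC cells. *Irf2*, *Irf5*, *Irf3* and *Irf9* were lower, with changes of the mean of -38.6%, -22.2%, -22.3% and -14.3%. *Irf1* was not called, and *Irf4* lay under the filter on low values of 1 RPKM in at least 3 libraries. Change was tested with limma on log2(RPKM + 1) over the 10738 genes that passed this filter, and a gene was called at a Benjamini-Hochberg adjusted p under 0.05. Fold changes below are on this scale, on which changes of genes with few RPKM come out too small. In this comparison 74.3% of all tested genes were called, 33.3% as higher and 41% as lower, so that 6 called of 7 tested interferon regulatory factors is close to the background. For 7 of the 8 members no sh-NC library lay inside the range of the other group or the reverse. Among the 7 tested members this held for all but *Irf1*, and among all tested genes for 76.4%. *Irf4*, also without overlap, was not tested and is not part of that share. The size of the change set the members apart from each other more than the call did. Absolute log2 fold changes above 0.5 were found for *Irf2*, *Irf7* and *Irf8*, 3 of the 7 tested members, against 30.9% of all tested genes that were called with such a change.

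**Figure D1:**
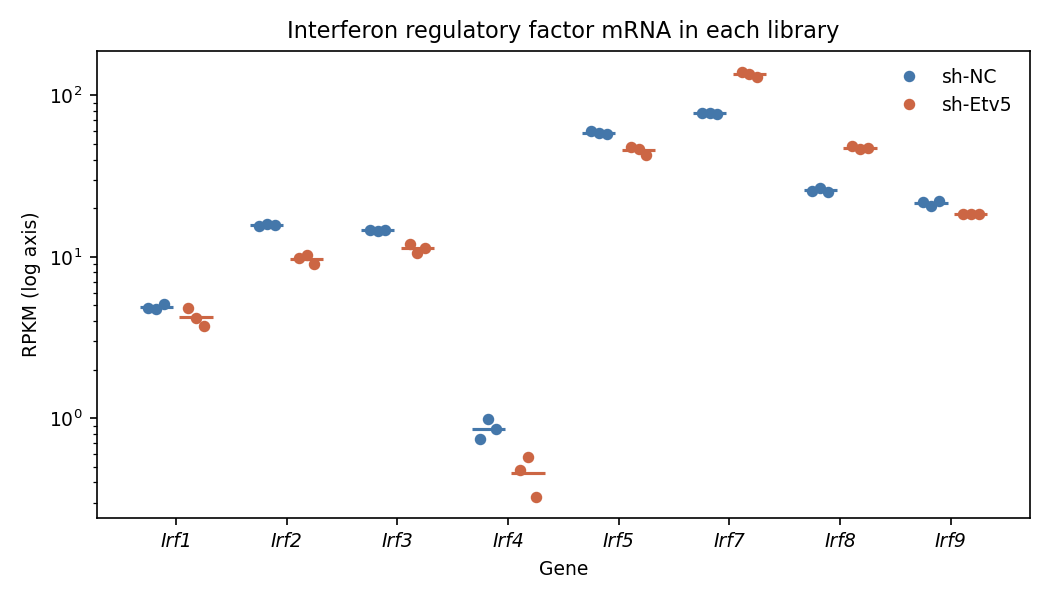
RPKM of each factor (log axis) in the 3 sh-NC and the 3 sh-*Etv5* libraries, with points for libraries and a line at each group mean. The libraries of the groups are apart for each gene except *Irf1*, with *Irf7* and *Irf8* higher and *Irf2*, *Irf3*, *Irf4*, *Irf5* and *Irf9* lower in sh-*Etv5* cells.

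*Etv5* itself, the target of the shRNA, was at 9.18, 9.89 and 9.39 RPKM in sh-NC cells and at 5.19, 4.91 and 5.28 RPKM in sh-*Etv5* cells. The libraries matched their labels, and the summed RPKM per library ran from 320462 to 340257. RPKM values do not give the sequencing depth, which stays unknown here, and counting error has no interval. The macrophage markers *Lyz2*, *Cd68*, *Csf1r*, *Cd14* and *Spi1* were all above 150 RPKM in both groups, while *Mertk* stayed near 0. From sh-NC to sh-*Etv5* cells, mean RPKM went from 2.60 to 11.3 for *Adgre1* and from 33.8 to 127 for *Itgam*. That of *Fcgr1* went from 46.5 to 31.3. Of 9 macrophage markers, 4 rose and 4 fell, and their summed RPKM went from a range of 4455 to 4582 in sh-NC cells to 3549 to 3670 in sh-*Etv5* cells. Lists of markers of other cells had summed RPKM of at most 6.69 in any library, and in these lists *Pax5*, *Jchain*, *Col1a2*, *Krt8* and *Cldn4* were at 0 in all 6 libraries. Others moved with the groups. Mean RPKM went from 1.36 to 3.98 for the T cell gene *Lck* and from 6.47 to 3.44 for the plasma cell gene *Sdc1*. That of the fibroblast gene *Lum* went from 0 to 0.797 and that of *Itgax*, listed as a dendritic cell gene, from 1.85 to 0.311. The study also reads *Itgax* as a mark of activated adipose tissue macrophages. The part of these genes in the results was not tested. In bulk RNA a change in the share of cells and a change in RNA per cell cannot be told apart.

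The genes lie on 6 chromosomes (GRCm38, GENCODE release M21), and *Irf7* and *Irf3* share chromosome 7 while *Irf2* and *Irf8* share chromosome 8. *Irf7* (chr7:141262706-141266481, minus strand) and *Irf8* (chr8:120736358-120756694, plus strand) rose, and *Irf2* (chr8:46739732-46847458, plus strand), *Irf3* (chr7:44997648-45002848, plus strand), *Irf5* (chr6:29526625-29541871, plus strand) and *Irf9* (chr14:55603571-55610030, plus strand) fell. Members on the same chromosome thus changed in opposite directions. Since these members split into rising and falling genes, the promoters of the pair that rose and of the 3 tested members that fell most are shown, read from the RefSeq table of GRCm38.p6 as 250 bases before and 50 bases after a start site, 5′ to 3′ on the strand of the gene. All 8 genes had an entry, with 11 windows in all because *Irf1*, *Irf8* and *Irf9* have 2 each. Capitals mark matches on either strand to the ISRE letters (GAAA, any 2 bases, GAAA), to the STAT element GAS (TTCNNNGAA), to the ETS core CGGAAGT and to the NF-κB consensus.
Irf8 (chr8:120736108-120736407, plus strand): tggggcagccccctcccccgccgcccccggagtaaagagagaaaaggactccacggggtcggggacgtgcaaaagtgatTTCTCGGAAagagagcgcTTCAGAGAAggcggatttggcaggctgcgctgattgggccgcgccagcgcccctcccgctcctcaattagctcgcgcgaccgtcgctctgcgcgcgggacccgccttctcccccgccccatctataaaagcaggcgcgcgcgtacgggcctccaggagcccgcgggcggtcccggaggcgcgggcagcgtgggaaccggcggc
Irf7 (chr7:141266375-141266674, minus strand): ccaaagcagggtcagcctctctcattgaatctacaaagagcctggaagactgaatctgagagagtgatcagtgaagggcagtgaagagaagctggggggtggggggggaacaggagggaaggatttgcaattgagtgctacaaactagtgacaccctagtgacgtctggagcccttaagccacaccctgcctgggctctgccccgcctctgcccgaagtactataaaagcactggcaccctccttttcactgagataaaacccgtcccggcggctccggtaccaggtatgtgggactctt
Irf2 (chr8:46739495-46739794, plus strand): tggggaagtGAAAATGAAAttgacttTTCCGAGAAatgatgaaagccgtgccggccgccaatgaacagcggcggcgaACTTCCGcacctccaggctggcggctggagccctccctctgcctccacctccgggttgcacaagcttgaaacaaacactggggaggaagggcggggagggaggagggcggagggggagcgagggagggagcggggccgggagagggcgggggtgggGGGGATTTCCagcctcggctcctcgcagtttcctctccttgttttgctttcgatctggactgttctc
Irf3 (chr7:44997398-44997697, plus strand): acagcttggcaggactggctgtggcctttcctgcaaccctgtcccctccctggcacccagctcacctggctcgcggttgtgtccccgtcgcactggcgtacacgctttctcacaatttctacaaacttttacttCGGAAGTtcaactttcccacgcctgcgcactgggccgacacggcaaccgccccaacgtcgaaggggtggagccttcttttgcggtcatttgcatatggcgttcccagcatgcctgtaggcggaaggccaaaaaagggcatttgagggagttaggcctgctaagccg
Irf5 (chr6:29526375-29526674, plus strand): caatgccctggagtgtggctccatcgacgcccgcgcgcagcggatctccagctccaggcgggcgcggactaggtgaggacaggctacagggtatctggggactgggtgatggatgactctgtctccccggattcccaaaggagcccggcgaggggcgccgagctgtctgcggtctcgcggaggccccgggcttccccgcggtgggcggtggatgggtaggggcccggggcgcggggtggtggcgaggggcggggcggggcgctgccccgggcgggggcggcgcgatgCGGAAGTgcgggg
The ETS core CGGAAGT was found for *Irf2*, *Irf3* and *Irf5*, all of which fell, and in no window of the other 5 members. Those 5 include *Irf9*, also called lower, and *Irf4*, lower but under the filter. By the same rule, 41% of all tested genes were called lower. The ETS core occurs in 6.42% of all 32851 promoter windows and in 14.6% of the 10535 windows of tested genes. A match is a description of the letters and was not tested for binding or for a part in the change. *Irf2* holds it 173 bases before the start site on the opposite strand, *Irf3* 116 bases before and *Irf5* 37 bases after. Matches to GAS lay at 171 and 153 bases before the start site of *Irf8* (TTCTCGGAA and TTCAGAGAA), at 90 bases before that of *Irf1* (TTCCCCGAA) and at 224 bases before that of *Irf2*, and 8.30% of all windows hold one. The *Irf2* window also held the one ISRE match among the members (GAAAATGAAA, 3.44% of all windows), overlapping a match to the composite PU.1 and IRF letters (GGAA, any 2 bases, GAAA, 2.72% of all windows). The NF-κB consensus was matched for *Irf1* and *Irf2* (4.51% of all windows), and the AP-1 letters TGANTCA in none of the 11 windows (7.81% of all windows). The *Irf7*, *Irf4* and *Irf9* windows held none of these letters. Of the windows of tested genes, 6.82% held GAS, 3.36% the ISRE and 2.33% the composite letters. NF-κB was matched in 5.07% and AP-1 in 4.86% of the windows of tested genes.

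**Figure D2:**
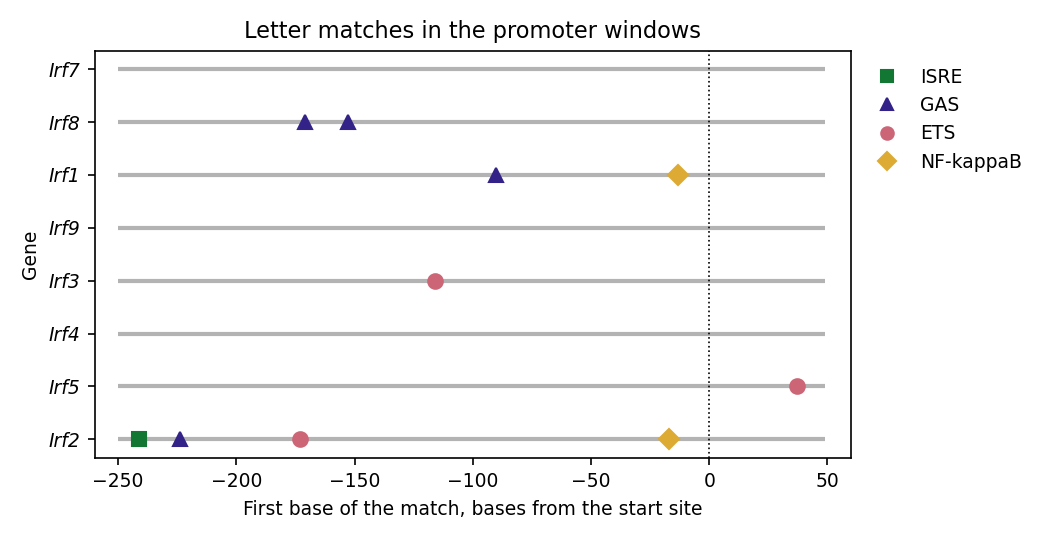
Positions of letter matches in the promoter windows, in bases from the start site (0), with all windows of a gene drawn on its line. ETS matches lie on the lines of *Irf2*, *Irf3* and *Irf5*, and the pair of GAS matches of *Irf8* lies 171 and 153 bases before its start site.

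*Irf7*, the inducible amplifier of type I interferon, had the highest level of the family in both groups. It was at 77.7, 77.9 and 76.3 RPKM in sh-NC cells and at 139.8, 136.0 and 130.8 RPKM in sh-*Etv5* cells, and each sh-*Etv5* library was above each sh-NC library. Its mean rose from 77.3 ± 0.885 to 135.5 ± 4.52 RPKM (SD, n = 3), or on the log2 scale a fold change of 0.80 (standard error, SE, 0.0349, 95% confidence interval, CI, 0.72 to 0.88, adjusted p = 4.14e-09 by limma). Of all tested genes, 14.4% had a larger absolute log2 fold change. Its exons share 45 bases, 1.19% of their length, with *Phrf1* on the opposite strand, and the strand used in counting is not given in the sources used here. *Phrf1* had a log2 fold change of -0.31, in the other direction than *Irf7*.

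*Irf8*, the myeloid partner of PU.1 and a factor required for monocyte and dendritic cell development, showed the largest log2 fold change of the 7 tested members. Its libraries were at 25.6, 26.9 and 25.1 RPKM in sh-NC cells and at 48.3, 46.5 and 47.4 RPKM in sh-*Etv5* cells, with no overlap. The mean rose from 25.9 ± 0.904 to 47.4 ± 0.927 RPKM (SD, n = 3), or on the log2 scale a fold change of 0.85 (SE 0.0398, 95% CI 0.76 to 0.94, adjusted p = 7.23e-09 by limma). The intervals of *Irf8* and *Irf7* overlap, so their order by size is not resolved. Of all tested genes, 13.0% changed more.

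*Irf3*, the constitutive partner of IRF7 that sensors activate by phosphorylation, moved against *Irf7*. *Irf3* was at 14.7, 14.4 and 14.7 RPKM in sh-NC cells and at 12.1, 10.5 and 11.4 RPKM in sh-*Etv5* cells. Each sh-*Etv5* library was lower, and the log2 fold change came to -0.34 (SE 0.0539, adjusted p = 0.000164 by limma). *Irf3* shares 88 exonic bases, 2.56% of its exons, with *Bcl2l12* on the opposite strand, which had a log2 fold change of -0.20. Within a library, *Irf7* was 5.30 ± 0.104 times as high as *Irf3* in sh-NC cells and 12.0 ± 0.799 times as high in sh-*Etv5* cells (SD, n = 3). The log2 ratio, with 1 added to each RPKM, rose by 1.14, and scaling of a library does not enter a ratio taken within it apart from that added 1. The groups did not overlap, but the 2-sided exact permutation test gave p = 0.1, the smallest that 3 against 3 libraries allow.

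*Irf2*, which mostly represses the sites that IRF1 activates, had the largest fall of the 7 tested members. It was at 15.6, 16.1 and 15.7 RPKM in sh-NC cells and at 9.83, 10.3 and 8.98 RPKM in sh-*Etv5* cells, and the groups were well apart. On the log2 scale *Irf2* changed by -0.65 (SE 0.0549, 95% CI -0.77 to -0.53, adjusted p = 9.29e-07 by limma). *Irf1* was low in both groups, at 4.82, 4.77 and 5.10 RPKM in sh-NC cells and at 4.84, 4.15 and 3.73 RPKM in sh-*Etv5* cells. Replicate 1 of sh-*Etv5* lay inside the range of the sh-NC libraries and the other 2 below it. For *Irf1* the log2 fold change came to -0.18 (95% CI -0.35 to 0.00148, adjusted p = 0.0677 by limma), so a difference was not resolved. This call turned on that library and on the scaling, since without sh-*Etv5* replicate 1 the value was -0.26 (adjusted p = 0.0107 by limma) and with libraries rescaled to the same sum it was -0.23 (adjusted p = 0.0263 by limma), while adjusted p-values of *Irf1* over the alternatives ran from 0.0107 to 0.249. The ratio of *Irf1* to *Irf2* went from 0.310 ± 0.0136 to 0.437 ± 0.0487 (SD, n = 3), a rise of 0.48 in the log2 ratio with 1 added to each RPKM (2-sided exact permutation p = 0.1, the smallest possible).

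*Irf5*, a driver of *Il6*, *Il12b* and *Tnf* transcription in inflammatory macrophages, was lower. *Irf5* was at 59.9, 58.6 and 57.8 RPKM in sh-NC cells and at 47.7, 46.5 and 42.9 RPKM in sh-*Etv5* cells. The mean fell from 58.8 ± 1.05 to 45.7 ± 2.52 RPKM (SD, n = 3), or on the log2 scale a fold change of -0.36 (SE 0.0437, adjusted p = 2.08e-05 by limma). *Irf5* shares 411 exonic bases, 14.1% of its exons, with *Tnpo3* on the opposite strand. *Tnpo3* also fell, with a log2 fold change of -0.33 at 32.2 RPKM in sh-NC cells, and its part in the *Irf5* value was not tested. *Irf9*, the DNA-binding subunit of ISGF3, was at 21.9, 20.8 and 22.0 RPKM in sh-NC cells and at 18.5, 18.4 and 18.6 RPKM in sh-*Etv5* cells. *Irf9* shares 123 exonic bases, 2.28% of its exons, with *Rnf31* on the same strand, whose log2 fold change was 0.15. The change of *Irf9* was the smallest called one of the family (log2 fold change -0.21, SE 0.0421, adjusted p = 0.000849 by limma).

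*Irf4*, which drives alternative activation in macrophages and plasma cell fate in B cells, was at 0.740, 0.988 and 0.859 RPKM in sh-NC cells and at 0.475, 0.572 and 0.327 RPKM in sh-*Etv5* cells. The groups did not overlap, yet all libraries lay under 1 RPKM and the gene was not among those tested. Its mean changed by -46.9%, more than the -38.6% of *Irf2*. Fitted without the filter, it gave -0.35 on the log2 scale (95% CI -0.58 to -0.13, adjusted p = 0.0359 by limma). That call did not hold with a pseudocount of 0.1, where the limma adjusted p was 0.0633, and over the alternatives it ran from 0.0105 to 0.11. It was lost on leaving out sh-NC replicate 1, 2 or 3, or sh-*Etv5* replicate 1 or 3, and the largest of these adjusted p-values was 0.11.

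**Figure D3:**
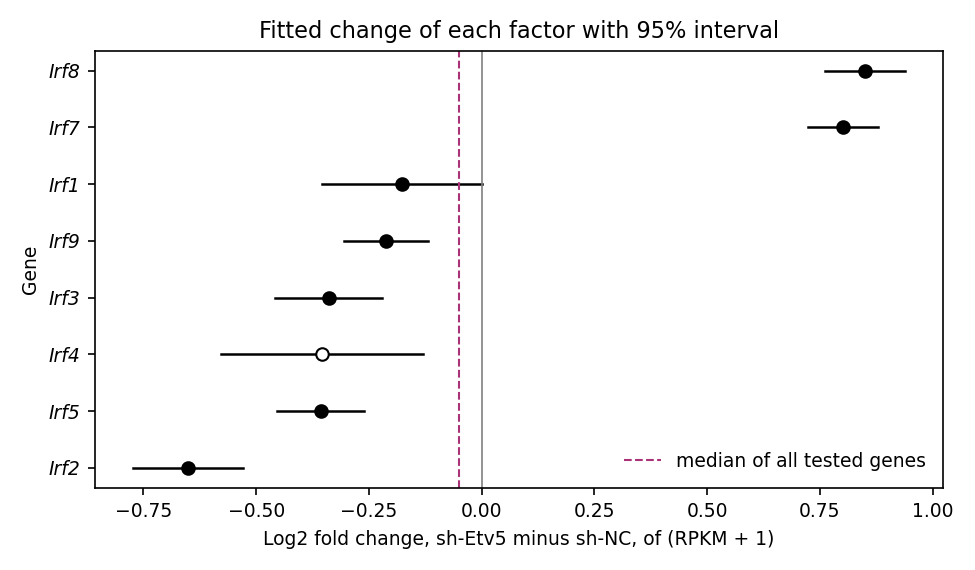
Log2 fold change of each factor, sh-*Etv5* minus sh-NC, with its 95% confidence interval from limma (filled points: fit over 10738 tested genes; open point: *Irf4*, fit without the filter). *Irf8* (0.85) and *Irf7* (0.80) lie far to the right of the dashed median of all tested genes (-0.05), and *Irf2* (-0.65) farthest to the left.

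The order of levels within the family changed with these shifts. In sh-NC cells it ran *Irf7*, *Irf5*, *Irf8*, *Irf9*, *Irf2*, *Irf3*, *Irf1* and *Irf4*, and no neighbours in this order had overlapping libraries. In sh-*Etv5* cells *Irf8* stood beside *Irf5*, with ranges of 46.5 to 48.3 and 42.9 to 47.7 RPKM that overlap, and *Irf3* stood above *Irf2*. In sh-NC cells *Irf5* was 2.27 times as high as *Irf8*. The summed RPKM of the 8 genes was 219.6 ± 1.78 in sh-NC cells and 272.9 ± 8.73 in sh-*Etv5* cells (SD, n = 3). *Irf7* made up 35.2% ± 0.152 of it in sh-NC cells and 49.7% ± 0.156 in sh-*Etv5* cells. The share of *Irf8* went from 11.8% ± 0.365 to 17.4% ± 0.505, and that of *Irf5* from 26.7% ± 0.305 to 16.7% ± 0.440 (SD, n = 3). *Irf2* went from 7.19% ± 0.124 to 3.55% ± 0.194 of the sum.

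**Figure D4:**
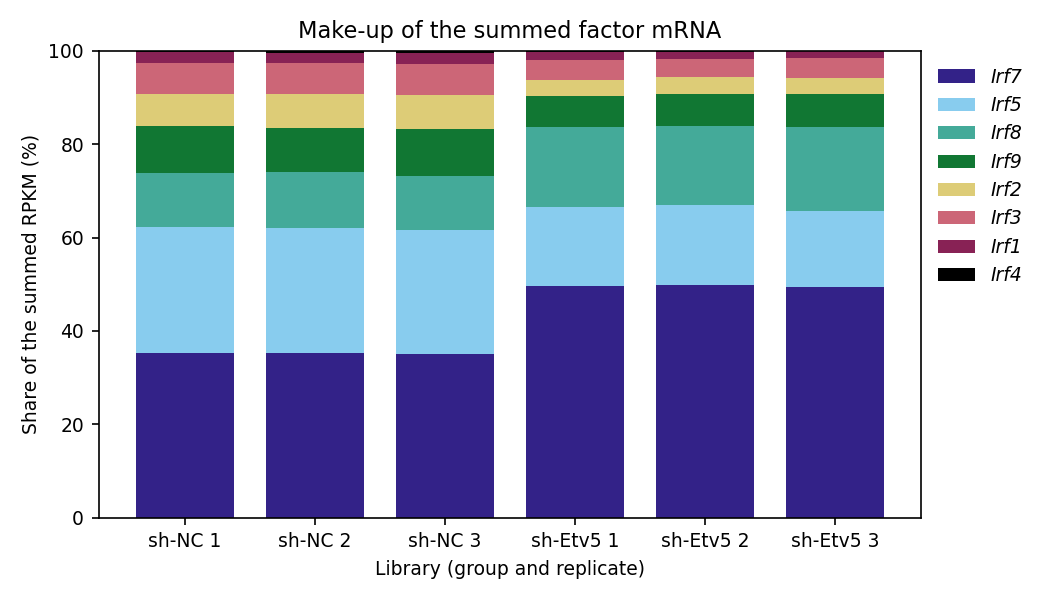
Share of each factor in the summed RPKM of the 8 genes (percent) in each of the 6 libraries. *Irf7* takes 35.1 to 35.4% in the sh-NC libraries and 49.5 to 49.8% in the sh-*Etv5* libraries, while the band of *Irf5* narrows from between 26.6 and 27.1% to between 16.2 and 17.0%.

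The tested genes whose profile over the 6 libraries lay closest to that of *Irf8* were *Me1*, *Rit1* and *Ghitm*. Closeness was the Euclidean distance between log2(RPKM + 1) profiles, each centred on its mean, and was 0.0398, 0.0649 and 0.0714. Genes picked by this distance have a log2 fold change near that of the member by choice, so their values add no support. For *Irf8* the picked genes had 0.84, 0.85 and 0.87. The groups did not overlap for any of these genes, as for 76.4% of all tested genes. Closest to *Irf2* were *Ccdc6* (distance 0.0483), *Cbx6* (0.0569) and *Cep164* (0.0587). By the same choice, they fell by 0.64, 0.67 and 0.65 on the log2 scale.

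The kinases and adaptors that activate IRF3, IRF5 and IRF7 were split between rises and falls. Of 16 genes, 9 were higher, 5 lower and 2 not called, with a median log2 fold change of 0.21 against -0.05 over all tested genes. The background for the counts of this and the following lists is 33.3% of all tested genes called higher and 41% lower. *Ikbke*, which encodes the inducible IRF3 and IRF7 kinase IKKε, was at 5.41, 5.94 and 5.15 RPKM in sh-NC cells and at 19.6, 20.6 and 18.7 RPKM in sh-*Etv5* cells (log2 fold change 1.67, adjusted p = 9.77e-10 by limma). Its constitutive relative *Tbk1* rose less, with a log2 fold change of 0.30 (adjusted p = 0.000416 by limma). *Ticam1*, the adaptor TRIF of TLR3 and TLR4 that leads to IRF3, rose from 6.38 ± 0.269 to 17.8 ± 0.266 RPKM (log2 fold change 1.35, adjusted p = 1.08e-09 by limma). *Irak1*, a kinase of the MyD88 branch of Toll-like receptor signalling, was at 20.3, 19.6 and 20.2 RPKM in sh-NC cells and at 10.6, 11.1 and 9.36 RPKM in sh-*Etv5* cells (log2 fold change -0.89, adjusted p = 1.41e-07 by limma). *Slc15a4*, an endolysosomal transporter needed for signals of TLR7 and TLR9, had a log2 fold change of -0.47, *Myd88* one of -0.44 and *Traf3*, an adaptor ubiquitin ligase, one of -0.42. *Irak4*, the kinase that acts with IRAK1 on MyD88, rose by 0.33 (adjusted p = 0.000309 by limma), so genes of that branch moved in both directions.

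Among 15 partners and cofactors, 12 were tested, of which 6 were higher, 5 lower and 1 not called (median log2 fold change 0.13). *Batf*, an AP-1 protein that binds composite sites with IRF4 and IRF8, was at 0.426, 0.212 and 0.0536 RPKM in sh-NC cells and at 2.53, 2.51 and 2.24 RPKM in sh-*Etv5* cells (log2 fold change 1.49). It passed the filter through sh-*Etv5* cells alone, so its call adds no support. *Junb*, which pairs with BATF, rose from 76.3 ± 1.57 to 185 ± 2.88 RPKM (SD, n = 3, adjusted p = 6.3e-11 by limma). *Spi1*, which encodes PU.1, was at 174, 157 and 157 RPKM in sh-NC cells and at 188, 181 and 174 RPKM in sh-*Etv5* cells (log2 fold change 0.15, adjusted p = 0.0101 by limma). *Spi1* therefore moved much less than *Irf8*. The genes named as IRF2-binding or IRF2-binding-like proteins went in different directions. *Irf2bp1* (log2 fold change -0.83, adjusted p = 3.37e-07 by limma) and *Irf2bp2* (-0.67, adjusted p = 1.48e-06 by limma) fell like *Irf2*, while *Irf2bpl* rose by 1.00 (adjusted p = 1.55e-07 by limma).

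Interferon genes, the best-known targets of IRF3 and IRF7, were near 0. Of 20 ligand genes, 15 were at 0 RPKM in all 6 libraries and none passed the filter, so none was tested. *Ifnb1* was listed at 0, 0 and 0.175 RPKM in sh-NC cells and at 0.540, 0.570 and 0.272 RPKM in sh-*Etv5* cells, without overlap. *Ifnab* was listed at 0.157, 0 and 0.161 RPKM after knockdown and at 0 in each control library.

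Of 19 genes of the interferon receptors and the JAK-STAT pathway, 18 were tested, of which 8 were higher, 7 lower and 3 not called (median log2 fold change 0.10). *Stat2*, which encodes a subunit of ISGF3, rose by 0.31 on the log2 scale (adjusted p = 0.000708 by limma), whereas *Irf9* fell. Both chains of the type I interferon receptor were lower, *Ifnar2* with a log2 fold change of -0.44 (adjusted p = 3.24e-06 by limma) and *Ifnar1* with -0.16 (adjusted p = 0.0235 by limma). *Socs3*, a feedback inhibitor of cytokine receptors, had the largest rise of this list, from 1.74 ± 0.217 to 71.0 ± 1.97 RPKM (SD, n = 3, adjusted p = 2.14e-13 by limma), followed by *Stat3* with a log2 fold change of 0.87.

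Target genes of ISGF3 split as well. All 37 were tested, and 20 were higher, 11 lower and 6 not called, with a median log2 fold change of 0.22. By the same rule, 33.3% of all tested genes were higher and 41% lower. *Rsad2*, which encodes the antiviral enzyme viperin, was at 2.63, 2.47 and 2.57 RPKM in sh-NC cells and at 26.5, 30.6 and 28.7 RPKM in sh-*Etv5* cells (log2 fold change 3.05, adjusted p = 7.64e-12 by limma). *Zbp1*, a sensor of Z-form nucleic acid, rose by 1.58 on the log2 scale. *Oasl2* was at 9.86, 9.93 and 9.82 RPKM in sh-NC cells and at 5.43, 5.06 and 5.36 RPKM in sh-*Etv5* cells (log2 fold change -0.79, adjusted p = 1.42e-07 by limma). *Mx1*, an antiviral GTPase, had a log2 fold change of -0.74 (adjusted p = 7.83e-06 by limma).

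Of 25 target genes of IRF1 and interferon-gamma, 17 were tested, of which 8 were higher, 5 lower and 4 not called (median log2 fold change 0.11). *Nos2*, the inducible nitric oxide synthase, was at 0.617, 0.771 and 0.536 RPKM in sh-NC cells and at 74.0, 74.0 and 70.3 RPKM in sh-*Etv5* cells, and *Cd274*, the checkpoint ligand PD-L1, went from 0.708 ± 0.197 to 5.34 ± 0.315 RPKM (SD, n = 3). These genes and *Gbp3*, 3 of the 8 that were higher, passed the filter through sh-*Etv5* cells alone, so their calls add no support. The largest falls of the list were those of *Psmb9*, an immunoproteasome subunit (log2 fold change -0.58, adjusted p = 9.48e-07 by limma) and of *Tapbp*, the peptide-loading chaperone tapasin (-0.39, adjusted p = 8e-07 by limma). The peptide transporter genes *Tap2* (0.69, adjusted p = 1.59e-07 by limma) and *Tap1* (0.45, adjusted p = 1.35e-05 by limma) rose, so antigen-processing genes moved in both directions. The IRF1-dependent genes *Cxcl9* and *Ciita* stayed under 0.1 RPKM in both groups.

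Genes bound by IRF8 with PU.1 did not follow *Irf8* as a group. Of 15 genes, 11 were tested, and 3 were higher, 3 lower and 5 not called (median log2 fold change 0.03). *Cybb*, which encodes the catalytic subunit of the phagocyte oxidase, rose by 0.32 on the log2 scale (adjusted p = 1.28e-05 by limma). *Cst3*, which encodes cystatin C, was at 1251, 1257 and 1274 RPKM in sh-NC cells and at 630, 627 and 714 RPKM in sh-*Etv5* cells (log2 fold change -0.94, adjusted p = 1.35e-08 by limma). *Pml*, a nuclear body protein, had a log2 fold change of -0.64 (adjusted p = 2.75e-07 by limma).

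Cytokine genes that IRF5 drives were far higher in the cells in which *Irf5* was lower. Of 7 genes, 3 were tested and all 3 rose, *Il6* by 5.26, *Tnf* by 2.69 and *Il1b* by 1.53 on the log2 scale. *Il1b* was at 0.0719, 0.215 and 0.170 RPKM in sh-NC cells and at 2.44, 2.21 and 2.30 RPKM in sh-*Etv5* cells. *Il6* was listed at 0 in all sh-NC libraries. *Il6* and *Il1b* passed the filter through sh-*Etv5* cells alone, so their calls add no support, while *Tnf* was above 60 RPKM in both groups. *Il12a*, also an IRF5 target, was at 0 in all 6 libraries and the mean of *Il12b* was 0.0252 RPKM in sh-*Etv5* cells. Of 8 genes tied to IRF4 and alternative activation, *Kdm6b*, a histone demethylase, was tested. It rose from 2.15 ± 0.237 to 5.20 ± 0.422 RPKM (SD, n = 3, log2 fold change 0.98, adjusted p = 7.34e-07 by limma), and the other 7 were under the filter.

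**Figure D5:**
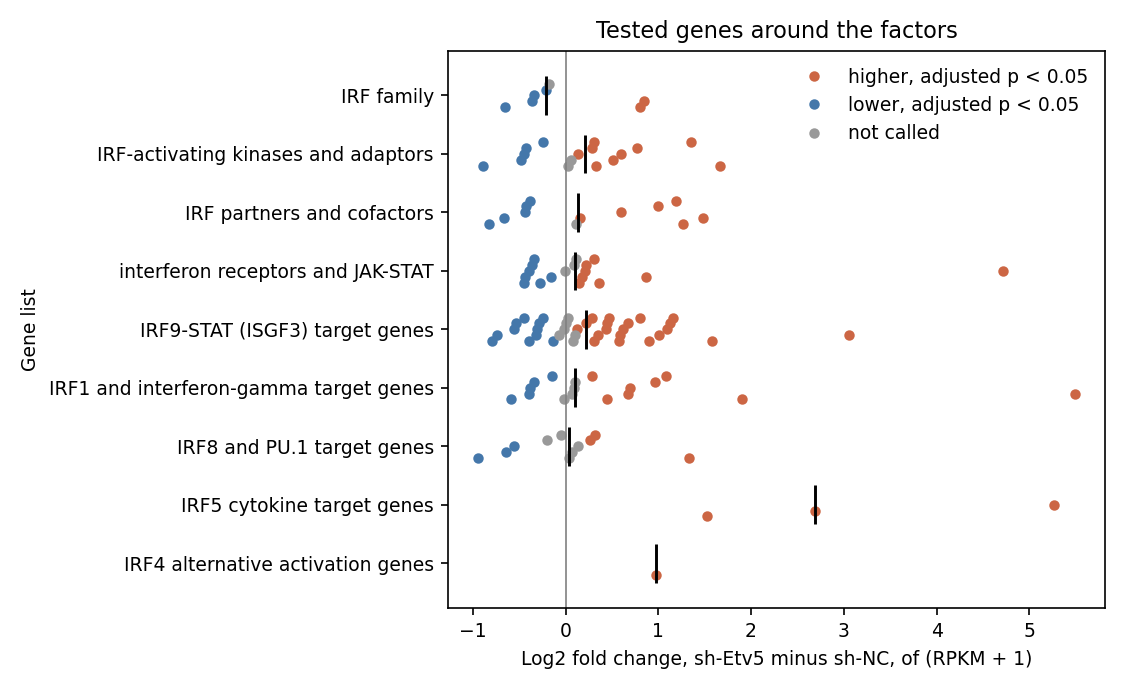
Log2 fold change, sh-*Etv5* minus sh-NC, of each tested gene (1 point per gene) in the family and in the lists of genes around it, with a black line at each list's median. Rises and falls stand side by side in each list down to the IRF8 and PU.1 targets, and the largest rises are those of *Nos2* (5.49), *Il6* (5.26) and *Socs3* (4.72). *Nos2* and *Il6*, like some other points, passed the filter through sh-*Etv5* cells alone.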

How the data were processed

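The authors deposited RPKM values, reads scaled by gene length in kilobases and by mapped reads, for 24786 gene symbols in 6 libraries of polyA RNA. The column names point to coverage tracks as their source, and the submitters' processing notes name the build mm10. The aligner, the gene models and the use of strand are not given in the sources used here. Length and library scaling were therefore already part of the values, and strongly expressed genes that change can shift the rest. Whole reads and depth were not recovered from these values.

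Genes with at least 1 RPKM in at least 3 libraries (10738) were compared on log2(RPKM + 1) by limma (version 3.58.1, R 4.3.3) with an intensity trend, 2-sided and without covariates. This is the package named in the study's methods. The code was tested on simulated data in which few genes changed, unlike here, which checks the code and not the calls. Adjusted p-values are Benjamini-Hochberg over all tested genes. Loci, exon overlaps and shared 50-base words came from GENCODE release M21, promoters from RefSeq, read with Python 3.11.15. All 8 members are named, with *Etv5*, fixed partners, the 2 largest called rises and falls of each list and the 3 nearest profiles of the members that rose and fell most. Some genes that this rule would name are not reported here. Further list genes, such as *Irf2bpl*, *Myd88*, *Traf3*, *Irak4*, *Tap1*, *Tap2*, *Gbp3*, *Ifnab*, *Cxcl9*, *Ciita*, *Il12a* and *Il12b*, and genes with overlapping exons were named after their values were seen. Members and lists were chosen with earlier results of these data known. Ratios were compared by exact permutation of libraries. Alternatives were other pseudocounts, filters, scalings, variance models and thresholds, the replicate number as a block, and each library left out in turn.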

Additional observations from a re-analysis of the deposited data

How the results depend on the processing

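*Irf2*, *Irf3*, *Irf5*, *Irf7*, *Irf8* and *Irf9* kept their direction and their call in each of 15 alternatives, with log2 fold changes from -0.71 to -0.60, -0.40 to -0.29, -0.42 to -0.30, 0.74 to 0.85, 0.79 to 0.90 and -0.27 to -0.16. The scalings moved the median of all tested genes by at most 0.0539 on the log2 scale. *Irf1* passed the threshold after scaling to a common sum and after quantile normalization (log2 fold change -0.23 in both), and with a library left out it ran from -0.26 to -0.10. *Irf4*, fitted without a filter, was not called with pseudocounts of 0.1 (-0.80) and 0.01 (-0.93), and with a library left out it ran from -0.41 to -0.29. The cause was not tested. A required absolute log2 fold change above 1 left 669 higher and 322 lower genes of the 10738 tested. Of these, 0 and 0 were interferon regulatory factors and 19 and 0 were genes of the lists around them. The share of the tested list genes was not worked out, so these counts are not read against all tested genes. Among the 19, *Batf*, *Nos2*, *Cd274*, *Gbp3*, *Il6* and *Il1b* passed the filter through sh-*Etv5* cells alone, so their calls add no support. With a library left out, 2 members were higher and 4 to 5 lower. The ratio of *Irf7* to *Irf3* rose by 1.09 to 1.17 and that of *Irf1* to *Irf2* by 0.40 to 0.53 on the log2 scale over their alternatives.

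The libraries of the groups share replicate numbers, but deviations of same-numbered libraries correlated at 0.0739, -0.0710 and -0.0352, and not every library correlated best with its own number. A fit that used this number as a replicate block called 3539 higher and 4361 lower genes, against 3575 and 4399 without it. With this block *Irf4* had a log2 fold change of -0.35 and was not called (limma adjusted p = 0.0653, within 0.0105 to 0.11 over its alternatives), and no other member's call changed. Depth is unknown, which limits what can be said of genes near 0 RPKM such as *Irf4* and the interferon ligands.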
